A study of Mus musculus with 2 samples.

Results

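Cell-surface receptors (10 genes of 27998 in the files) were followed in the dural meninges, the tough outer sheath of the brain: Klrg1, Icos, Il2ra, Tnfrsf4, Tnfrsf18, Pdcd1, Ctla4, Cd69, Il17rb and Nmur1. They were taken by name as activation and costimulatory receptors of group 2 innate lymphoid cells (ILC2s), and all 10 were matched to 1 row each. RNA of single cells was counted in droplets (10x Genomics) in mice of postnatal day 14, with 1 library from Il33 heterozygotes (het) and 1 from Il33-deficient mice (KO). Both genotypes carried an H2B-mCherry allele at Il33, as Il33mcherry/+ in het and Il33mcherry/mcherry in KO, so the controls had a single intact copy of the gene. For each genotype and sex, tissue of 5 to 8 mice was combined. Cells sorted as CD45+CD11b- and as gp38+CD31- were mixed with unsorted viable cells at 1:1:2, so the mix sets cell shares in part.

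ILC2s are tissue-resident lymphocytes without a rearranged antigen receptor that answer alarmins, such as IL-33, with type 2 cytokines. Their activation is tuned by a second layer of surface receptors. ICOS, OX40 (Tnfrsf4) and GITR (Tnfrsf18) are costimulators, CD25 (Il2ra) confers high affinity for IL-2, and PD-1 (Pdcd1), CTLA-4 and KLRG1 are inhibitory. CD69 retains cells in tissue, while IL-17RB and NMUR1 receive IL-25 and the neuropeptide neuromedin U. Most of these genes are shared with T cells, regulatory T cells in particular.

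The authors annotated 5950 of 10936 het and 6594 of 12046 KO barcodes, at medians of 12746.5 and 12204.5 unique molecular identifiers (UMIs) per cell. Their names for cluster 9 were kept: ILC2s (66 het and 65 KO cells), NK (52 and 54), gdTcells (76 and 102) and Tcells (30 and 32). The other 21 clusters were used by number. ILC2s had median depths of 10099 and 8565 UMIs. With 1 library per genotype no test was possible. Levels are UMIs of a gene scaled to 1000000 UMIs of a class and library (CPM), and intervals (95%) cover counting error only. Genotype, animals, sort and preparation cannot be told apart. Il33 itself was 43.5 CPM over all annotated het cells and 9.67 CPM in KO (KO/het ratio 0.222, interval 0.207 to 0.239), and 0 of its UMIs were in ILC2s. Which part of the Il33 transcript those reads cover is not stated in the labels, so the remaining 911 KO UMIs do not check the allele. The matrices shared 36 barcodes, 14 of them annotated in both libraries and 0 among ILC2s.

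The label ILC2s held against its markers. All 10 ILC2 markers (Gata3, Rora, Il1rl1, Il7r, Il5, Il13, Areg, Arg1, Calca and Hs3st1) were at least 2-fold above the other cells, and summed to 6890 CPM in het and 5273 CPM in KO. Of 7 NK markers, 0 were seen in het ILC2s and 1 in KO ILC2s. Foxp3, the defining factor of regulatory T cells, had 0 UMIs in ILC2s of either library. T cell markers summed to 249 and 236 CPM, with Cd8a and Cd8b1 at 0 in both libraries and Cd3e, Cd3d and Cd4 also at 0 in KO. Even so, 30 of 66 het ILC2s and 23 of 65 KO ILC2s held a Cd3e, Cd3d or Cd3g UMI. In KO these were Cd3g UMIs alone, and Cd3g was the 1 T cell marker of 8 at least 2-fold up in ILC2s. B cell markers summed to 187 CPM in het and 50 CPM in KO, mast cell or basophil markers to 225 and 107 CPM (Fcer1a and Mcpt8 at 0 in both libraries), and fibroblast markers to 392 and 838 CPM. The part of these cells in the results below was not tested, except where values without Cd3-positive cells are given.

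Tnfrsf4 and Tnfrsf18 are neighbours on chromosome 4, and their levels in ILC2s lay on different sides of the het level in KO, so their promoters are shown with that of Il17rb, 1 of the genes highest in ILC2s. Tnfrsf4 (ENSMUSG00000029075) spans 156013843 to 156016612 and Tnfrsf18 (ENSMUSG00000041954) spans 156026164 to 156028895, both on the plus strand of GRCm38, 9551 bases apart with 2 predicted genes, Gm37090 and Gm25982, between them. Il17rb (ENSMUSG00000015966) lies on the minus strand of chromosome 14, at 29996135 to 30008896. The sequences are RefSeq promoters on GRCm38.p6, 250 bases before to 50 bases after the annotated start, 5′ to 3′ on the gene's strand. The gene spans come from GENCODE, whose starts of Tnfrsf4 and Tnfrsf18 differ from those of the promoters. The Tnfrsf4 window ends before the gene span, and much of the Tnfrsf18 window lies within it. Capitals mark letter matches, on either strand, to a GATA motif (spelled AGATAA or else AGATAG, and likewise TGATAA or else TGATAG), an AP-1 motif (TGACTCA or else TGAGTCA), a STAT motif (TTCNNNGAA) or the NF-kB motif. No match overlapped a match of another motif.
Tnfrsf4, chr4:156013445-156013744, plus strand: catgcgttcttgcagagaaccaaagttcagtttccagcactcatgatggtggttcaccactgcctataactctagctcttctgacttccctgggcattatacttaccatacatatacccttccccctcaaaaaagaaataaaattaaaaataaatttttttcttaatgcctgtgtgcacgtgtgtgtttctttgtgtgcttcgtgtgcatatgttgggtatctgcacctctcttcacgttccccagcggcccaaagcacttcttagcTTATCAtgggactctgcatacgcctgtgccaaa
Tnfrsf18, chr4:156026072-156026371, plus strand: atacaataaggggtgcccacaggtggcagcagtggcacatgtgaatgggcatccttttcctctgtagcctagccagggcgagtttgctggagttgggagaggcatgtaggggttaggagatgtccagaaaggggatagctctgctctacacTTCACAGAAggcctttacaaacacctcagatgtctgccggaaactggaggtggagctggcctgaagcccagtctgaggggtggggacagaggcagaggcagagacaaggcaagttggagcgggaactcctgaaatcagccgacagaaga
Il17rb, chr14:30008847-30009146, minus strand: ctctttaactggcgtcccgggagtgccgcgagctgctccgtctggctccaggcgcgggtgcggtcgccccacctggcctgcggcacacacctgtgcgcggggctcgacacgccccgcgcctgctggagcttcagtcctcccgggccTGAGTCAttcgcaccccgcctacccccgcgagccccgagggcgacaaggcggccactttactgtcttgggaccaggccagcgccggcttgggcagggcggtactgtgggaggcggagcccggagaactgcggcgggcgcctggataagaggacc
The capitals are a GATA match in Tnfrsf4, a STAT match in Tnfrsf18 and an AP-1 match in Il17rb. Of 32851 promoters of this length, 29.8% hold a GATA, 5.2% an AP-1, 8.3% a STAT and 8.46% an NF-kB match. Promoters of 7 of the 10 genes were in the table. Those of Klrg1, Icos and Cd69 were not used here. That of Il2ra held 2 NF-kB matches that overlap each other, both promoters listed for Nmur1 held GATA matches (1 and 2), and those of Pdcd1 and Ctla4 held none of the 4 motifs in this window. These matches are letters in a window and say nothing of binding.

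The genes fell into different classes of cells. In each library 4 of the 10 (Il2ra, Tnfrsf18, Il17rb and Nmur1) had their highest level in ILC2s, 3 (Klrg1, Tnfrsf4 and Ctla4) in Tcells, 2 (Icos and Pdcd1) in gdTcells, and Cd69 in cluster 16. Of all genes with at least 20 UMIs in a library, 1.98% in het and 2.15% in KO were highest in ILC2s, 3.53% and 3.3% in Tcells, 2.85% and 2.69% in gdTcells, and 4.68% and 4.57% in cluster 16. Some of these places are not firm, and Nmur1, with 10 het and 8 KO UMIs, is under the minimum used for these shares. Klrg1 in KO Tcells rests on 4 UMIs in 1 cell, with a counting interval that overlaps that of NK, and its highest class was NK without that cell, in male-labelled KO cells and in female-labelled het cells. Ctla4 was highest in gdTcells in female-labelled het cells, and in KO its interval in Tcells (238 CPM) overlapped that in gdTcells (182 CPM). In het, the ILC2 intervals of Il2ra and Tnfrsf18 overlapped those of Tcells, and both genes were highest in Tcells in male-labelled het cells. The set named for ILC2s spans the lymphocytes of the meninges, and 6 of its 10 genes were higher in another class.

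**Figure D1:**
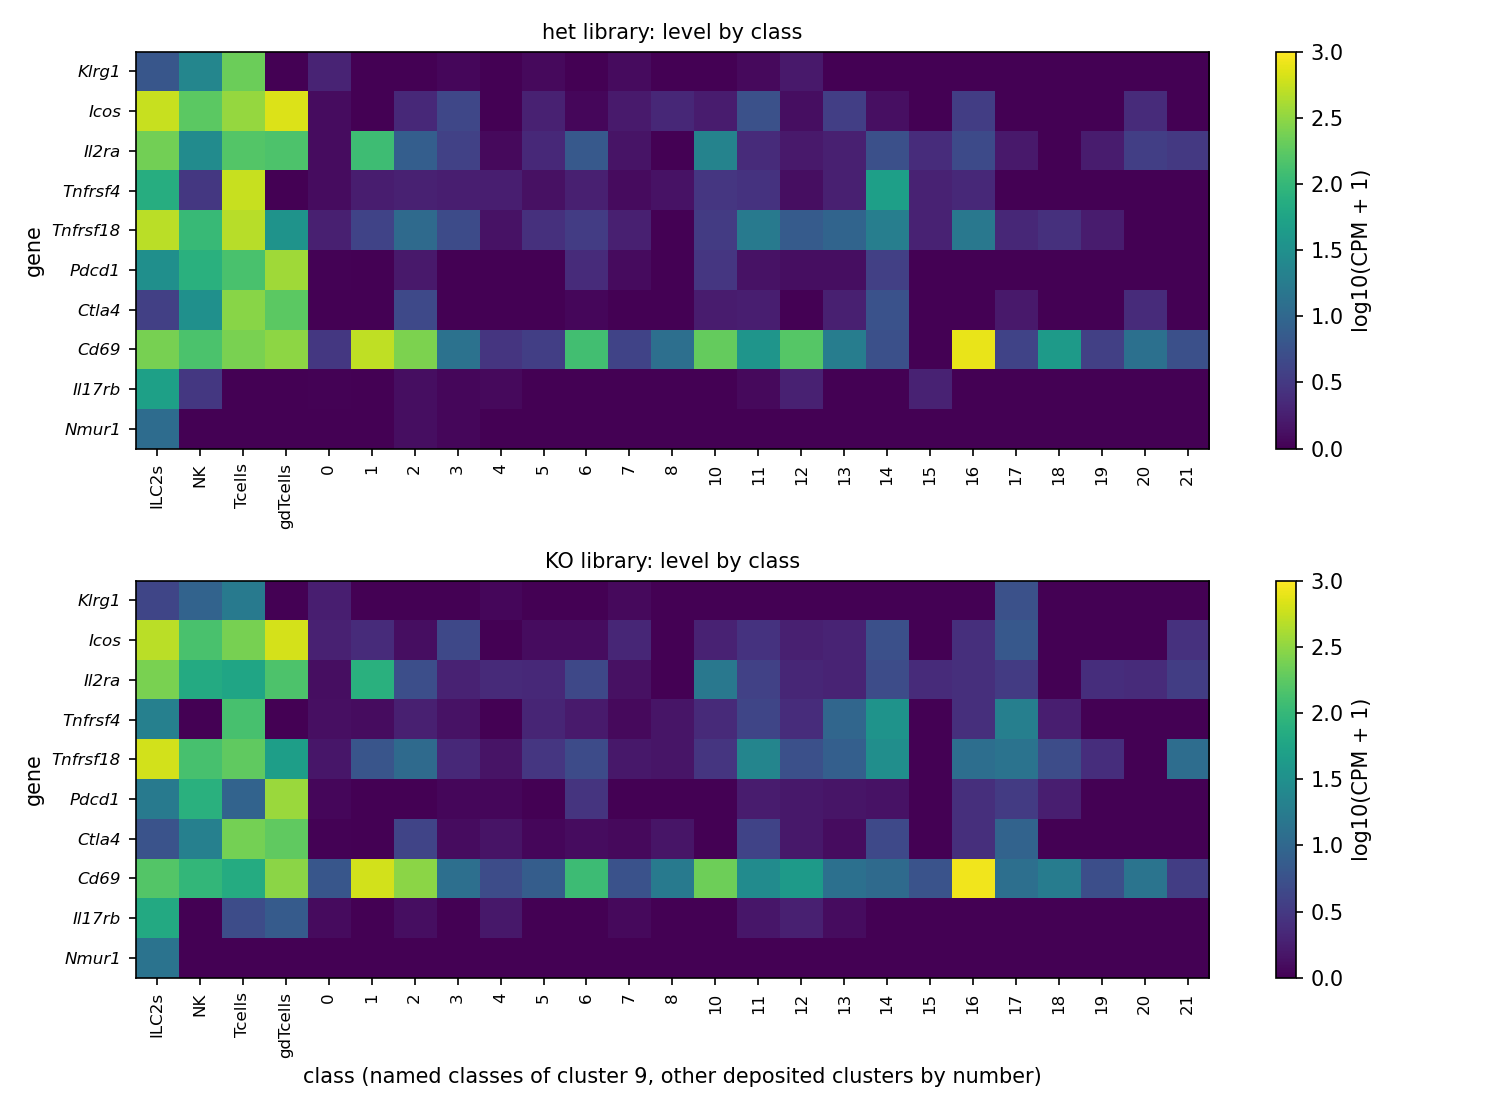
Level of each of the 10 receptor genes (rows) in 25 classes of annotated cells (columns), as log10(CPM + 1), het library above and KO library below, 1 library each. Il17rb and Nmur1 are brightest in ILC2s, Icos and Pdcd1 in gdTcells, and Cd69 extends to clusters 1, 2, 6, 10 and 16.

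Il17rb, the IL-25 receptor chain, was the gene most narrowly held in ILC2s among those with more than 20 UMIs. Its level was 49.2 CPM in het and 66.2 CPM in KO ILC2s, against 0.126 and 0.267 CPM over the 24 other classes. ILC2s held 77.1% of its 48 het UMIs and 62.1% of its 66 KO UMIs. The next class was NK in het, at 2.09 CPM, and gdTcells in KO, at 6.21 CPM, both below the interval of ILC2s. An Il17rb UMI was seen in 25 of 66 het and 31 of 65 KO ILC2s, in most of them as a lone UMI (17 and 23 cells).

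Nmur1 (chromosome 1, 86386303 to 86426228, minus strand), the neuromedin U receptor that couples ILC2s to nerves, was near the limit of detection. It had 10 UMIs in het and 8 in KO over all annotated cells, and ILC2s held 8 in each library. In ILC2s, 8 het (12.1%, interval 5.38 to 22.5) and 7 KO cells (10.8%, 4.44 to 20.9) held a UMI, while cluster 8, a blood endothelial-like class of similar depth (medians of 8395 and 8395.5 UMIs), had 0 in 261 and 226 cells. These 0 counts allow shares of up to 1.15% and 1.33%.

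Tnfrsf18, the costimulator GITR, was 485 CPM in het and 617 CPM in KO ILC2s. In het the Tcells were at 471 CPM, within the counting interval of ILC2s (437 to 538), whereas in KO they were at 186 CPM, below it. UMIs of it were found in 64 of 66 (het) and 62 of 65 (KO) ILC2s, with a median of 5 UMIs per ILC2 in each library and maxima of 23 and 16. At 1000 UMIs per cell the expected shares were 37.6% and 43.6%.

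Il2ra (chromosome 2, 11642807 to 11693193, plus strand), the alpha chain of the IL-2 receptor, was 226 CPM in het and 245 CPM in KO ILC2s. In het, Tcells (158 CPM), gdTcells (144 CPM) and the B cell-like cluster 1 (115 CPM) followed without a gap between neighbours' intervals. In KO, ILC2s stood above gdTcells (146 CPM) and cluster 1 (79.2 CPM). A UMI was found in 53 of 66 and 49 of 65 ILC2s, and in 0 cells of cluster 8.

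Icos (chromosome 1, 60977927 to 61000320, plus strand), the inducible costimulator, had the same order of lymphoid classes in each library. It was 694 CPM in het gdTcells, 560 in ILC2s, 331 in Tcells and 176 in NK, and 646, 492, 242 and 138 CPM in KO, with neighbouring intervals apart at every step. Cluster 9 held 92.6% of its het and 91.6% of its KO UMIs. UMIs were found in 58 of 66 het ILC2s (87.9%) and 56 of 65 KO ILC2s (86.2%), against 3 of 261 and 0 of 226 cells of cluster 8.

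Pdcd1 (chromosome 1, 94038305 to 94052553, minus strand) encodes the inhibitory receptor PD-1. It was 373 CPM in het and 351 CPM in KO gdTcells, above the next class by more than its interval in each library. The next class was Tcells in het (137 CPM) and NK in KO (79.6 CPM). NK was at 79.5 CPM in het, and Tcells were at 8.07 CPM in KO. ILC2s held 30.6 and 16.1 CPM, with a UMI in 11 of 66 and 8 of 65 cells.

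Ctla4 (chromosome 1, 60887000 to 60915832, plus strand), the CD28 antagonist whose gene lies 62094 bases from Icos, hardly appeared in ILC2s. It had 2 het and 3 KO UMIs there (2.66 and 4.84 CPM), against 291 and 238 CPM in Tcells and 174 and 182 CPM in gdTcells. Klrg1 (chromosome 6, 122270596 to 122282882, minus strand), the cadherin-binding inhibitory receptor often used to mark mature ILC2s, had 4 het and 2 KO UMIs in 3 and 2 ILC2s. Both levels (5.32 and 3.23 CPM) are near the 3.99 and 4.84 CPM that a count of 0 allows in ILC2s. Klrg1 was 209 CPM in het and 16.1 CPM in KO Tcells, and 23.0 and 8.12 CPM in NK.

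Cd69 (chromosome 6, 129267325 to 129275436, minus strand), an early activation and tissue-retention receptor, was the most widely found member and was highest in cells of the B lineage. Cluster 16, which is B cell-like and led by Vpreb1, Dntt and Igll1, had 801 CPM in het and 868 CPM in KO. Cluster 1, B cell-like and led by Rag1, had 516 and 625 CPM. ILC2s had 242 and 158 CPM, and cluster 9 in all held 8.92% and 6.97% of the Cd69 UMIs. A UMI was also seen in 2.68% and 3.54% of cluster 8 cells, so the shares of 56.1% (37 of 66) and 47.7% (31 of 65) in ILC2s lay far above that background.

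In ILC2s, 7 of the 10 genes had the 20 UMIs set as the minimum for a KO/het ratio. Of these, 3 (Tnfrsf4, Pdcd1 and Cd69) were at least 1.5-fold lower in KO, against 14.1% of the 5759 genes measured in ILC2s, and 0 were at least 1.5-fold higher, against 9.05%. The median log2 KO/het ratio was -0.18 over the 7 genes and -0.04 over 5754 genes with UMIs in each library. Klrg1, Ctla4 and Nmur1 were under the minimum.

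**Figure D2:**
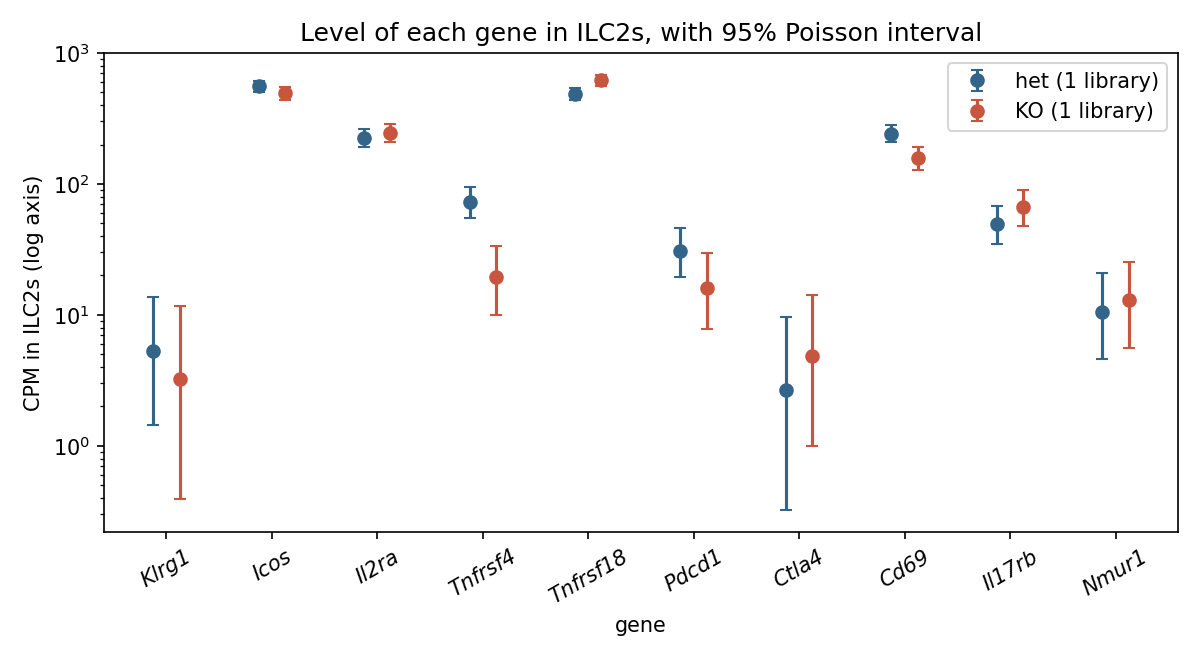
Level of each receptor gene in ILC2s in CPM on a log axis, as points with 95% Poisson intervals, het and KO, 1 library each. The intervals of Tnfrsf4 (55.1 to 95.2 CPM in het, 10.0 to 33.8 CPM in KO), Cd69 and Tnfrsf18 are apart between the libraries, and those of the other 7 genes overlap.

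Tnfrsf4, the costimulator OX40, was furthest from the het level. It had 55 UMIs in 13 of 66 het ILC2s and 12 UMIs in 7 of 65 KO ILC2s, which are levels of 73.1 and 19.4 CPM and a KO/het ratio of 0.265 (0.129 to 0.501). Of the positive cells, 7 het and 1 KO held 3 or more UMIs, and the highest held 12 and 5. With the top cell of either library left out, it was 0.197 (0.0748 to 0.442). It was 0.651 (0.237 to 1.66) in cells with a female label and 0.125 (0.0324 to 0.344) in cells with a male label, which rest on 14 and 8 UMIs and on 41 and 4 UMIs. The female label marks cells with a UMI of an X-inactivation transcript, so shallow female cells can be labelled male. Most ILC2s of either library held no Tnfrsf4 UMI, and the shares of positive cells, 19.7% (10.9 to 31.3) and 10.8% (4.44 to 20.9), overlapped.

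Tnfrsf18, its neighbour, had a KO/het ratio of 1.27 (1.10 to 1.47), short of the 1.5-fold limit. The ratio was 1.64 (1.31 to 2.07) in cells with a female label and 1.05 (0.859 to 1.27) in cells with a male label. Cd69 was 242 CPM in het and 158 CPM in KO, a ratio of 0.654 (0.506 to 0.84). In the same cells the 8 markers of mast cells or basophils, of which 1 (Kit) was at least 2-fold up, summed to 225 and 107 CPM. Their part in the Cd69 value was not tested. A single het cell held 29 of its 182 UMIs, and without the top cells the ratio was 0.696, within 1.5-fold. Pdcd1, with 23 and 10 UMIs, had a ratio of 0.528 (0.224 to 1.15), and 7 of the het UMIs came from 1 cell.

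Icos, Il2ra and Il17rb were within 1.5-fold of the het level. Their ratios were 0.88 (0.757 to 1.02), 1.09 (0.867 to 1.36) and 1.35 (0.842 to 2.16). Il17rb was past 1.5-fold higher in male-labelled ILC2s (1.53) and in ILC2s without an Mki67 or Top2a UMI (1.69). It was also past 1.5-fold higher in cluster 9 cells with Il1rl1 and no Cd3 UMI (1.58). In ILC2s without a Cd3 UMI, Icos was at 1.06, Il2ra at 1.32, Tnfrsf4 at 0.172, Tnfrsf18 at 1.45, Cd69 at 0.804 and Il17rb at 1.42. Of these measured genes, only Tnfrsf4 was past 1.5-fold. Pdcd1 was under the UMI minimum there, at 31.6 CPM in het and 14.6 CPM in KO. Tnfrsf4 was also the 1 measured gene at least 1.5-fold lower in female-labelled ILC2s, where Tnfrsf18 was past 1.5-fold higher. Pdcd1 was again under the minimum, at 28.1 CPM in het and 14.2 CPM in KO. Dividing cells, marked by an Mki67 or Top2a UMI, numbered 23 among het and 16 among KO ILC2s. Those cells held 51.8% of het and 27.5% of KO Icos UMIs, and 46.5% and 32.1% of all UMIs.

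Several of the receptors were found in the same cell. The median ILC2 held a UMI of 4 of the 10 genes in each library (range 1 to 7 in het, 0 to 7 in KO), and 61 of 66 het and 57 of 65 KO cells held 3 or more. The gdTcells had the same median, NK had 2, and Tcells had 3 in het and 2 in KO. At 1000 UMIs per cell, the expected mean number of genes per ILC2 was 1.3 in het and 1.25 in KO. Of the 45 pairs in each library a few are given, chosen after their values were seen. Tnfrsf4 and Pdcd1 were together in 6 het ILC2s, where their separate frequencies give 2.17, and in 3 KO ILC2s, where they give 0.862. Icos and Tnfrsf18 were together in 57 het and 54 KO ILC2s, close to the 56.2 and 53.4 that their frequencies give. Il2ra and Pdcd1 were together in 7 het and 5 KO ILC2s, where their frequencies give 8.83 and 6.03. These expected counts treat all cells as equally deep, and the part of depth in the pairs was not tested.

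Outside ILC2s the KO/het ratios differed by class. In gdTcells 6 genes were measured and 0 were past 1.5-fold in either direction, where 7.28% of all measured genes were lower and 11.2% higher. Their ratios lay between 0.932 (Icos) and 1.39 (Tnfrsf18, 0.826 to 2.41). In NK 6 genes were measured, where 9.92% of genes were lower and 14.1% higher. Il2ra was higher, at 27.2 CPM in het and 66.6 CPM in KO (ratio 2.45, 1.29 to 4.98), and Ctla4 was lower, at 15 and 12 UMIs (0.621, 0.265 to 1.42). With the top cells left out, Ctla4 was at 1.35. Markers of other cells in NK also differed. B cell markers summed to 48.1 CPM in het and 237 CPM in KO, fibroblast markers to 1146 and 3570 CPM, and the 7 NK markers themselves to 3756 and 2335 CPM. T cell markers, 7 of 8 of them at least 2-fold up in NK, summed to 989 CPM in het and 904 CPM in KO. Gamma-delta T cell markers, 4 of 6 of them 2-fold up, summed to 85.7 and 156 CPM. The part of any of these sets in the Il2ra value was not tested.

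**Figure D3:**
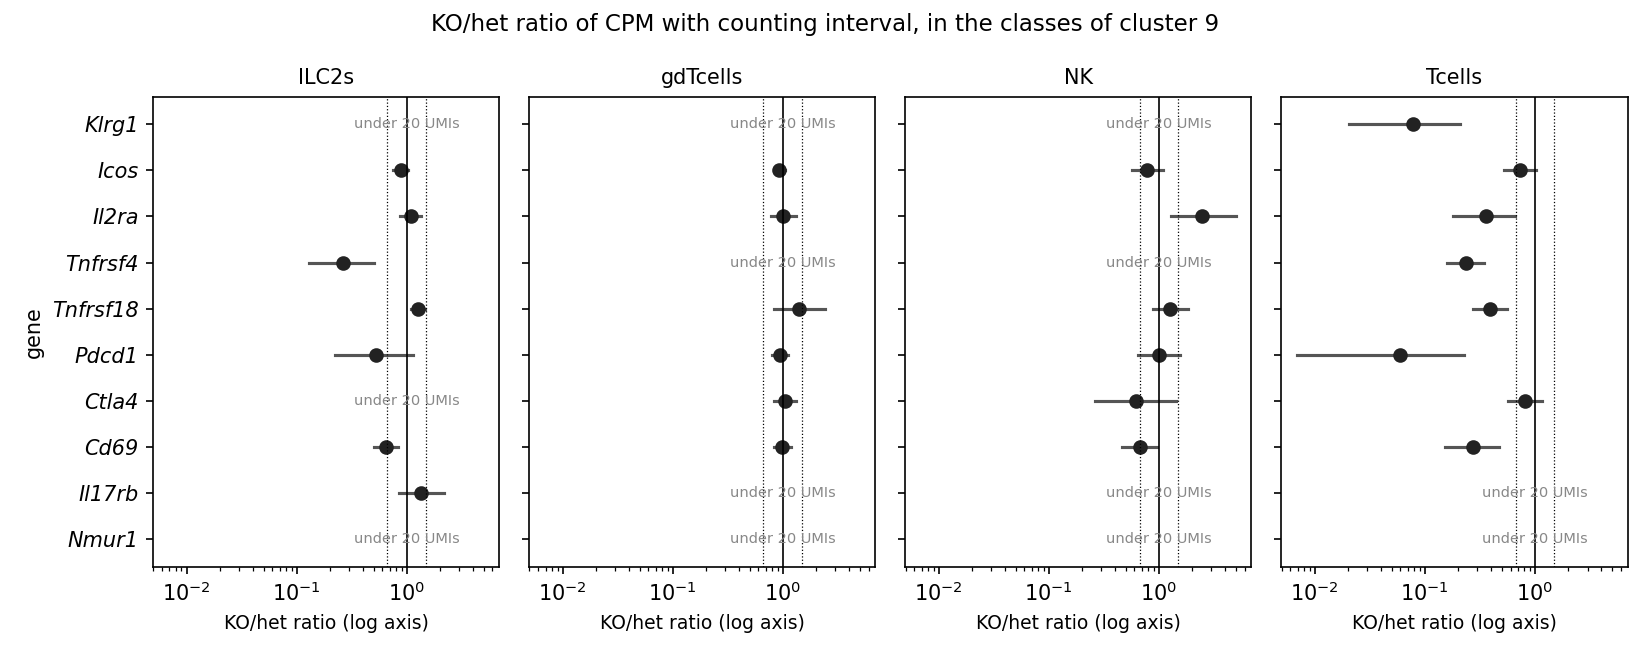
KO/het ratio of CPM on a log axis for each receptor gene in the 4 classes of cluster 9, as points with 95% counting intervals. Dotted lines mark 1.5-fold, and the ratios in Tcells lie left of those in gdTcells for all genes measured in both classes.

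Tcells showed most of the genes at a lower level in KO. Of 8 measured, 6 were at least 1.5-fold lower (Klrg1, Il2ra, Tnfrsf4, Tnfrsf18, Pdcd1 and Cd69) and 0 were higher, where 23.6% of 3257 measured genes were lower and 8.29% higher. Tnfrsf4 was 561 CPM in het and 133 CPM in KO (ratio 0.237, 0.158 to 0.347), and Tnfrsf18 was 471 and 186 CPM (0.394, 0.275 to 0.555). Klrg1 had 58 het and 4 KO UMIs (0.0774, 0.0204 to 0.209), and Pdcd1 had 38 and 2 (0.0591, 0.0069 to 0.229). The Klrg1 values rest on few cells: 1 het cell held 32 of the 58 UMIs and 1 KO cell held all 4. Male-labelled Tcells had 56 het and 0 KO Klrg1 UMIs, and female-labelled Tcells had 2 and 4. Icos (0.732, 0.52 to 1.02) and Ctla4 (0.817, 0.574 to 1.16) were within 1.5-fold. In female-labelled Tcells, 15 in each library, 5 genes were measured and 2 (Tnfrsf4 and Cd69) were lower, while 7 of 8 were lower in male-labelled Tcells. Ctla4 turned with the label: it was past 1.5-fold higher in female-labelled (2.05, 1.16 to 3.75) and past 1.5-fold lower in male-labelled Tcells (0.416, 0.246 to 0.683).

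The makeup of the Tcells also differed between the libraries. Of the het Tcells, 11 of 30 held a Foxp3 UMI (36.7%, 19.9 to 56.1), as did 2 of 32 KO Tcells (6.25%, 0.766 to 20.8), at median depths of 7655.5 and 7469.5 UMIs. These intervals overlapped slightly, and each share rests on 1 library. At 1000 UMIs per cell the expected shares were 14.6% and 1.71%. The Foxp3-positive cells held all 58 het and 4 KO Klrg1 UMIs, 95.5% of het and 48.5% of KO Tnfrsf4 UMIs, 88.6% and 92.9% of Il2ra UMIs and 85.2% and 30.5% of Ctla4 UMIs. Tnfrsf4 was 1412 CPM in the 11 het cells with a Foxp3 UMI and 40.6 CPM in the other 19. Without Foxp3-positive cells, an alternative chosen after seeing the data, 6 genes were measured and 2 remained lower, Pdcd1 (22 and 2 UMIs, ratio 0.0679) and Cd69 (0.249). Tnfrsf18 was then at 0.827 (0.48 to 1.43), Icos at 0.982 and Tnfrsf4 at 1.81 (0.715 to 5.17), and Ctla4 was at 2.55 (1.32 to 5.33).

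**Figure D4:**
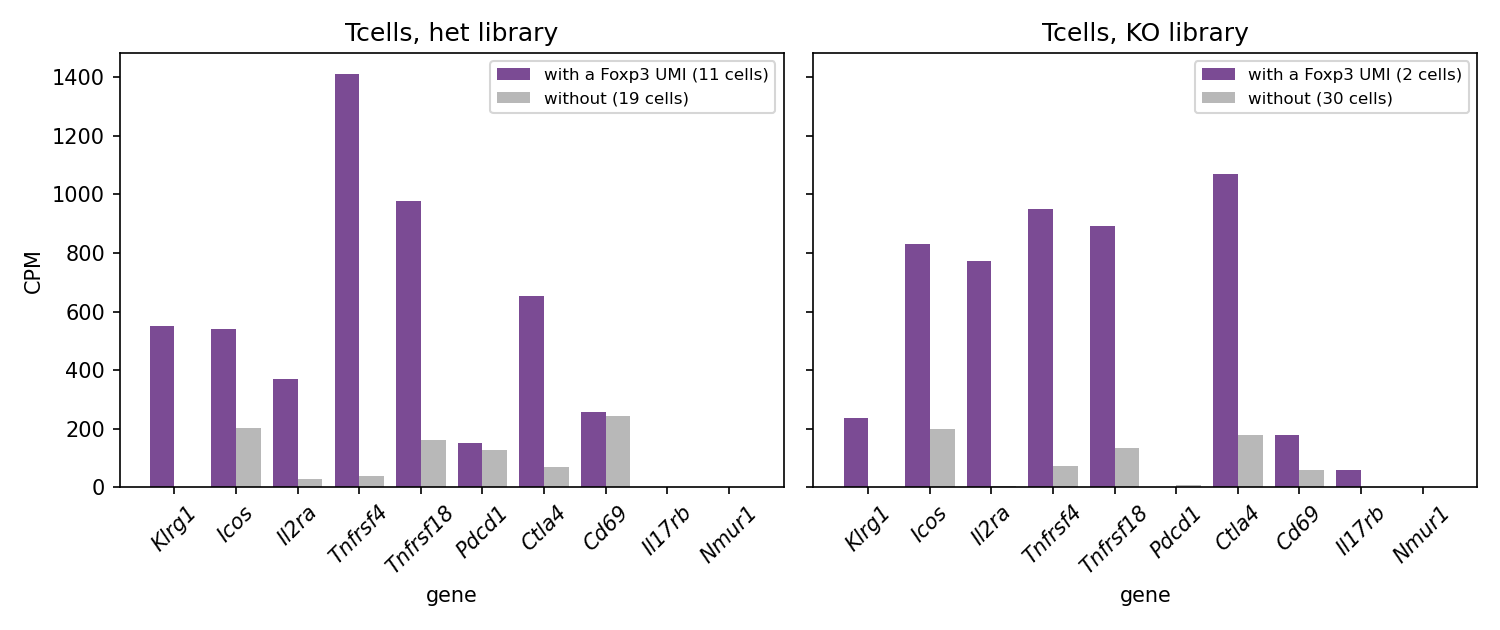
Level of each receptor gene in Tcells with and without a Foxp3 UMI, in CPM, het library left and KO library right, as bars of 1 summed value each with no error. Klrg1 appears in Foxp3-positive cells alone, and Tnfrsf4 reaches 1412 CPM in the 11 het cells and 950 CPM in the 2 KO cells.

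Among the other clusters, genes lay past 1.5-fold in both directions. Cd69 was higher in clusters 0 (2.62, 1.81 to 3.85), 5 (2.48, 1.37 to 4.77) and 14 (2.29, 1.13 to 4.88). It was also past 1.5-fold higher in clusters 4 and 7, with intervals that include 1. Tnfrsf4 was higher in cluster 13 (10.4, 3.28 to 52.8), where 1 KO cell held 18 of 36 UMIs and het had 3. Cd69 was lower in cluster 18 (0.405, 0.235 to 0.677) and in cluster 12, whose 8 of 8 mast cell or basophil markers were 2-fold up. In cluster 12, Cd69 was 161 CPM in het and 42.7 CPM in KO (ratio 0.264, 0.22 to 0.317). Of 11788 genes measured there, 6.79% were lower and 16.1% higher. The leading genes of the cluster also included Scgb1c1, Gpx6 and Mpo, which are not among those markers. Median depth there was 17456 UMIs in het and 9946.5 UMIs in KO. Cells with an Ms4a2 or Mcpt8 UMI, 60 of 166 in het and 42 of 214 in KO, held 65.2% and 50.6% of the Cd69 UMIs. Cd69 was 475 CPM in those het cells and 126 CPM in the KO cells, and 72.2 and 25.4 CPM in the rest of the cluster. The part of depth, or of the mix of cells in the cluster, was not tested.

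Tnfrsf4 had a second home in cluster 14, which is dendritic cell-like. It was 48.8 CPM in het and 34.2 CPM in KO (0.702, 0.531 to 0.922). Cells with a UMI of Ccr7, the chemokine receptor of migrating dendritic cells, held 92.5% of its het and all of its KO UMIs. In those 24 het and 30 KO cells it was 332 and 163 CPM. They held 13.6% and 21.0% of all UMIs of the cluster. Tnfrsf18 in cluster 14 was 18.4 and 29.4 CPM (1.6, 1.12 to 2.31). In the B cell-like cluster 1, Il2ra was 115 and 79.2 CPM (0.688, 0.583 to 0.811) and Cd69 was 516 and 625 CPM (1.21, 1.13 to 1.3).

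Ligands of the receptors were sparse or came from a few classes. Cd86, a ligand of CTLA-4 and CD28, was highest in the macrophage-like cluster 3, at 251 CPM in het and 301 CPM in KO. Cd80, the other such ligand, reached 9.5 CPM in cluster 18 in het and 9.6 CPM in cluster 11 in KO. In het, cluster 11 was close behind at 9.36 CPM. Among the cadherins that KLRG1 binds, Cdh1 was highest in the arachnoid barrier-like cluster 5 (32.4 and 32.6 CPM). Cdh2 was highest in cluster 17 in het (135 CPM) and cluster 19 in KO (112 CPM), both neuron-like in their markers, and Cdh4 in cluster 19 in het (22.3 CPM) and cluster 17 in KO (15.0 CPM). Icosl, the ligand of ICOS, was highest in cluster 11 in het (21.7 CPM) and cluster 14 in KO (26.7 CPM), with ILC2s next at 16 and 24.2 CPM.

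Il2, which signals through Il2ra, was highest in ILC2s themselves. Its level was 77.1 CPM in het and 150 CPM in KO, from 58 UMIs in 24 cells and 93 UMIs in 18 cells (ratio 1.95, 1.39 to 2.75). The PD-1 ligand genes Cd274 and Pdcd1lg2 were highest in Tcells in het (28.8 and 57.6 CPM), and in cluster 2 (31.4 CPM) and ILC2s (27.4 CPM) in KO. The het Tcells values rest on 8 and 16 UMIs. Their intervals overlap those of het cluster 2 for Cd274 (23.0 CPM) and of het ILC2s for Pdcd1lg2 (34.6 CPM). Tnfsf4, the OX40 ligand, had 3 het and 10 KO UMIs over all annotated cells, and Tnfsf18, the GITR ligand, had 28 and 19, most of them in cluster 3 (19 and 10). Nmu had 9 and 4 UMIs, Il25 had 11 and 7, Il17b had 11 and 8, and Nms had 0. Of the 15 ligand genes, 3 were measured in ILC2s, of which 2 were at least 1.5-fold higher in KO (9.05% of all genes measured in ILC2s) and 0 lower (14.1%), with a median log2 ratio of 0.6. These were Il2 and Icosl, and Icosl rests on 12 het and 15 KO UMIs (1.52, 0.663 to 3.55).

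**Figure D5:**
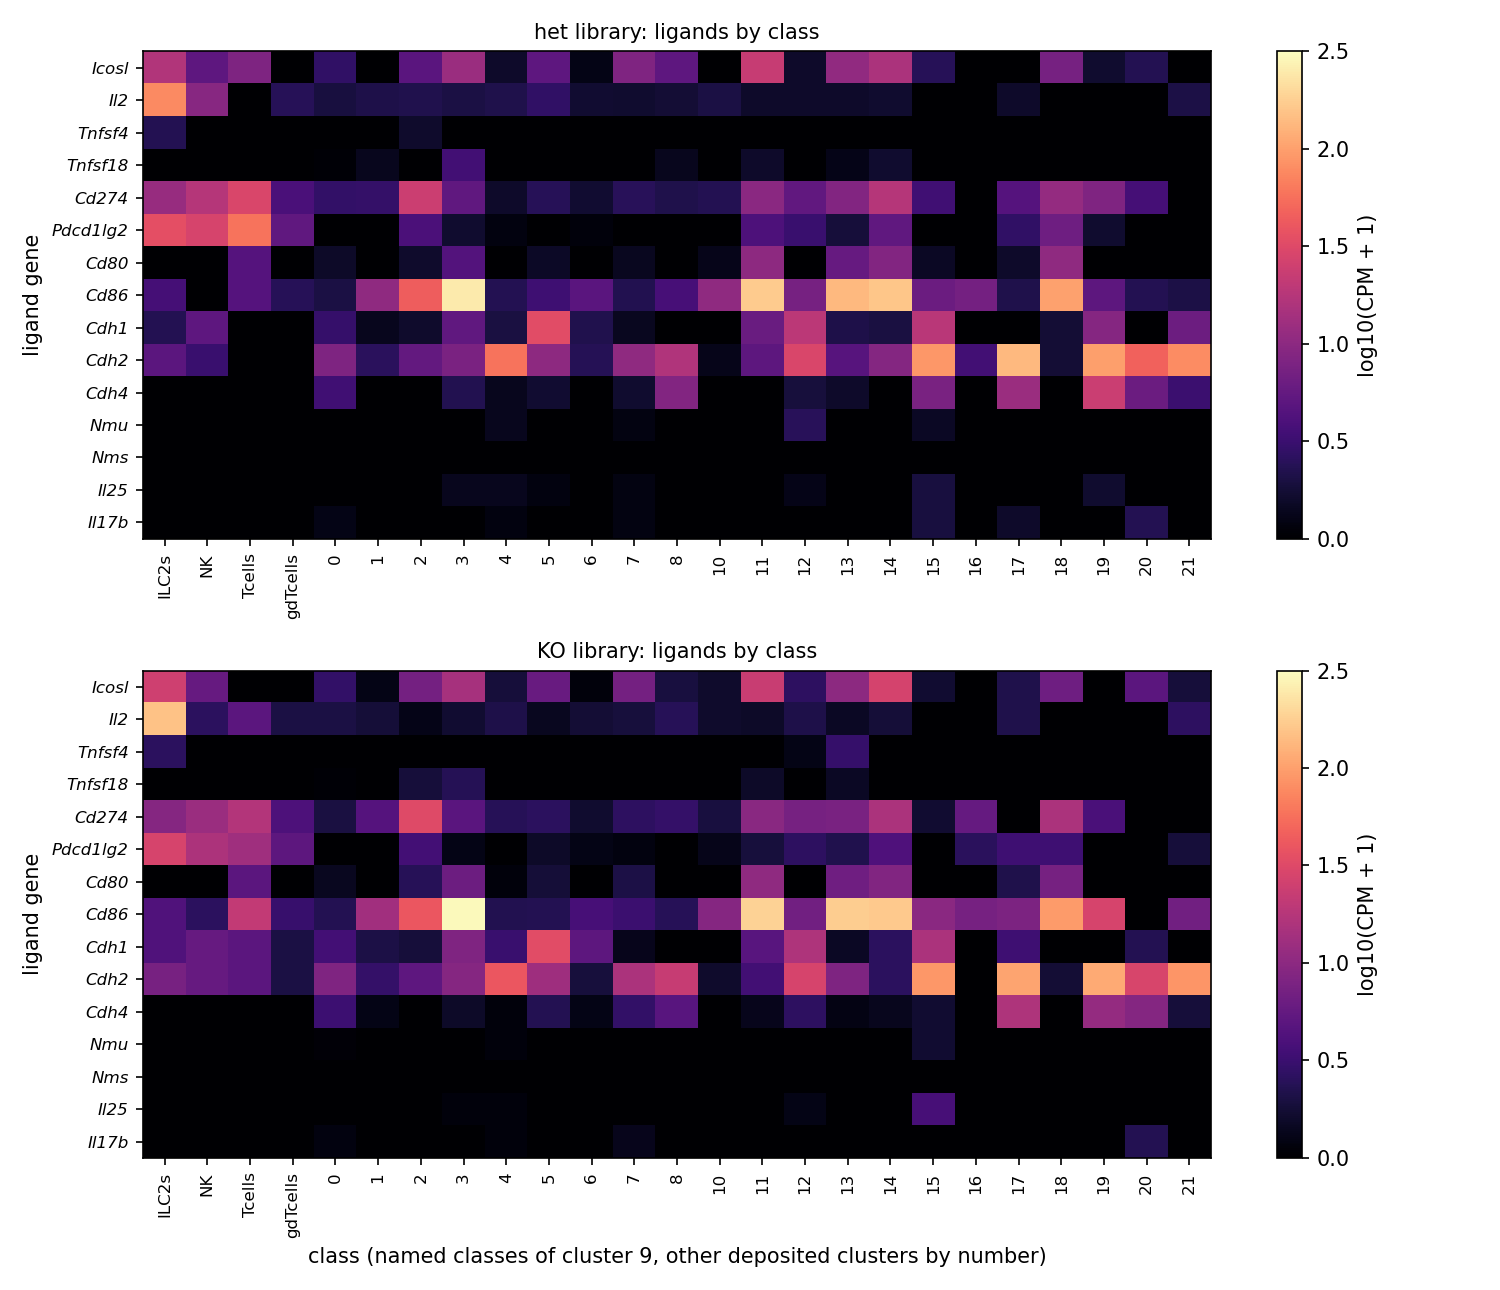
Level of 15 ligand genes (rows) in 25 classes (columns), as log10(CPM + 1), het above and KO below, 1 library each. Il2 is brightest in ILC2s, Cd86 in clusters 3, 11, 13 and 14, and the rows of Tnfsf4, Nmu, Nms, Il25 and Il17b are dark.

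Related receptors in ILC2s were taken from lists of other genes, to be read beside the 14.1% of all measured genes that were lower and the 9.05% that were higher. Of 12 other costimulatory receptors 7 were measured. Cd2, an adhesion receptor (0.304, 0.0739 to 0.941), and Tnfrsf1b, the second TNF receptor (0.639, 0.265 to 1.44), were at least 1.5-fold lower in KO, and Cd27 was higher (1.77, 1.02 to 3.11), with a list median of -0.33. The 2 with the highest levels were Cd44 (141 and 160 CPM) and Tnfrsf25, the receptor of TL1A (81.1 and 61.4 CPM). Of 10 other inhibitory receptors 3 were measured, with a median of 0.08. Lilrb4a was lower (77.1 and 38.7 CPM, 0.502, 0.299 to 0.821), Cd96 was higher (29.3 and 50 CPM, 1.71, 0.959 to 3.1), and Cd200r1 was at 93.1 and 98.5 CPM.

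Of 18 cytokine and neural receptors 14 were measured, with 3 at least 1.5-fold lower, 0 higher and a median log2 ratio of 0.13, where 14.1% of all genes measured in ILC2s were lower and 9.05% higher. The lower ones included Il9r, the IL-9 receptor (0.607, 0.325 to 1.1), and Crlf2, the TSLP receptor (0.662, 0.444 to 0.977). Il7r (548 and 657 CPM) and Ramp1, a subunit of the CGRP receptor (548 and 618 CPM), had the highest levels. Il1rl1, the IL-33 receptor, was 537 and 449 CPM (0.836, 0.715 to 0.976).

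Of 23 signalling genes below the receptors 15 were measured, with 2 lower, 0 higher and a median of -0.04. The lower count is near the share of 14.1% over all genes measured in ILC2s, and 9.05% of those were higher. Traf1, an adaptor of the TNF receptor family, was 271 CPM in het and 158 CPM in KO (0.583, 0.454 to 0.746). Socs2, a feedback inhibitor of cytokine signalling, was 125 and 75.9 CPM (0.607, 0.418 to 0.871). Jak1 was 241 and 268 CPM (1.11, 0.897 to 1.38), and Cish, a further inhibitor of this kind, was 226 and 181 CPM (0.8, 0.624 to 1.02).

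Across the 25 classes of both libraries (50 points that share libraries and depth), the genes with the most similar log2(CPM + 5) profile were named among 15227 genes, as a description. For Il17rb they were Il2 (Pearson r 0.96), Il5 (0.95) and Ccl1 (0.94). For Tnfrsf18 they were Pdcd1lg2 (0.92), BC021614 (0.9) and Gata3 (0.9). Icos was closest to Zap70 (0.98) and Cxcr6 (0.98), and Il2ra to Rasgrp1 (0.88), Il7r (0.87) and Ikzf3 (0.86). Ctla4 was closest to Cd3e (0.97), Cd247 (0.96) and Cd3d (0.95), and Pdcd1 to Il12rb1 (0.96), Il18r1 (0.93) and Cd3g (0.92). Klrg1 was closest to Tnfrsf9 (0.91), Cd28 (0.87) and Izumo1r (0.81), and Tnfrsf4 to Lgals7 (0.76), Klrg1 (0.74) and Tnfrsf9 (0.73). Cd69 was closest to Ptprcap (0.96), Rhoh (0.93) and Atp2a3 (0.92). Nmur1 had fewer than the 100 UMIs required. Among the members themselves, the closest pair was Icos and Pdcd1 (0.91) and the least close was Tnfrsf4 and Cd69 (0.17).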

How the data were processed

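Droplet single-cell libraries of dural meninges were analysed, 1 per genotype. The deposited matrices hold UMI counts per gene and barcode. Per the submitters' processing notes they were made with Cell Ranger 3.0.2 on mm10, and the aligner settings, annotation and cell filter are not stated there. Library, cluster number, sex label and cluster 9 names come from the authors' deposited metadata.

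Raw UMI counts were summed per class and library and scaled to CPM (Python 3.11.15, numpy 2.4.6, pandas 2.3.3, scipy 1.17.1). Intervals are 95%: exact Poisson for levels, Clopper-Pearson for shares and conditional binomial for ratios. They cover counting error only, and a count of 0 allows 3 counts. Ratios needed 20 UMIs over both libraries, and a gene was called at 1.5-fold. No test was made. Thinned shares are exact expectations at 1000 UMIs per cell. No doublet caller was run. Counts of the 10 genes were identical in the deposited table of annotated cells. Ratios and intervals were run on simulated Poisson sums. That draw leaves out the concentration of UMIs in few cells, so it does not show that the intervals hold for these data.

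The genes and lists were chosen with earlier results of these data known. Named genes were all members, and per list those past 1.5-fold and the 2 highest in ILC2s, for ligands the top class, and for each member the 3 genes most alike. Of these named genes, 2 are not reported here. Clusters were called X-like from at least 3 markers 2-fold up. Alternatives covered count source, scaling, UMI minimum, left-out cells, sex label and ILC2 definition.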

Additional observations from a re-analysis of the deposited data

Results flagged for a closer look

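Tnfrsf18 had a KO/het ratio of 1.27 in ILC2s (1.10 to 1.47) and 0.394 in Tcells (0.275 to 0.555), which points in different directions in 2 classes of the same libraries. Il2ra had a ratio of 2.45 in NK (1.29 to 4.98) and 0.357 in Tcells (0.181 to 0.664). Neither difference was tested, since each rests on 1 library per genotype. Both Tcells values come from classes in which 11 het and 2 KO cells held a Foxp3 UMI.

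Barcodes that the authors did not annotate also held UMIs of the 10 genes, 1000 in 4986 het barcodes and 1159 in 5452 KO barcodes. Cd69 made up 671 and 786 of them. In CPM, each of the 10 genes was lower there than in annotated cells in each library, for example Icos at 3.83 against 13.2 CPM in het, and Nmur1 had 0 UMIs.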

How the results depend on the processing

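No paired analysis was possible because each genotype has 1 library and both titles carry the same number. The count of genes at least 1.5-fold lower in KO ILC2s was 3, and became 1 in female-labelled cells and 1 without cells with a Cd3 UMI, lying between 2 and 4 under the other 10 alternatives. In both cases with a count of 1, Pdcd1 fell under the UMI minimum, so 6 rather than 7 genes were measured. The count of higher genes was 0, and became 1 with a minimum of 1 UMI, in female-labelled cells, in male-labelled cells, without cells with an Mki67 or Top2a UMI, and with ILC2s defined as cluster 9 cells with Il1rl1 and no Cd3 UMI. The higher gene was Tnfrsf18 in female-labelled cells, and Il17rb in male-labelled cells, without dividing cells and with that definition. The median log2 ratio was -0.18, and became 0.24 without Cd3-positive cells, 0.32 with that definition and 0.04 without dividing cells. The medians of 0.24 and 0.32 are over 6 genes, without Pdcd1. In male-labelled het cells, 2 rather than 4 genes were highest in ILC2s. The count of lower genes in Tcells, 6, became 2 without Foxp3-positive cells and 2 in female-labelled cells, under alternatives chosen after seeing the data, and stayed at 6 or 7 otherwise. Over 10 alternatives the ratio of Tnfrsf4 in ILC2s ran from 0.125 to 0.651 and Cd69 from 0.539 to 0.804. Tnfrsf18 ran from 1.05 to 1.64, Icos from 0.75 to 1.16, Il17rb from 1.14 to 1.69 and Il2ra from 0.954 to 1.35. With a pseudocount of 1 CPM, 7 of 9 genes exchanged at least 1 of their 3 most similar genes, and Pdcd1 all 3. Klrg1, Ctla4 and Nmur1 are too sparse in ILC2s for a ratio at this depth.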
